A study of Mus musculus with 6 samples.

Results

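The 9 genes described here, Ptprc, Fgr, Lyn, Syk, Btk, Vav1, Plcg2, Ptpn6 and Inpp5d, encode kinases, phosphatases and exchange or lipid-signalling enzymes that white blood cells use to pass on signals from their surface receptors. They were chosen by symbol, with earlier results of these data known, as genes of leukocyte-wide signalling that are mostly not surface markers. All 9 were among the 16344 genes with a value. RNA was sequenced from 6 mouse tumours of high-grade serous ovarian cancer, grown for 21 days before treatment from the mouse line 60577 in the peritoneal cavity of syngeneic mice. The 3 AZD7507 tumours came from animals given 3 weekly cycles of carboplatin and then AZD7507, an inhibitor of the macrophage growth factor receptor CSF1R, by daily gavage for 84 days. The 3 vehicle tumours are labelled as vehicle in place of AZD7507, and the protocol text, shared by all samples, gives carboplatin for all animals and no separate schedule for vehicle. The mouse strain and the animals' age are not stated. Each tumour's title holds its own code, but whether a code names an animal is not stated. Tumours were taken at a humane endpoint with no day given, so that time of collection and treatment cannot be told apart, and the model is 1 cell line. Every p-value below therefore rests on how much these 6 tumours vary.

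Receptors on myeloid cells and B cells signal through short tyrosine motifs, which SRC-family kinases such as Lyn and Fgr phosphorylate and on which the kinase Syk then docks. Syk and Btk activate phospholipase C gamma 2, encoded by Plcg2, which releases calcium, and the exchange factor Vav1, which switches on Rac GTPases. The phosphatase CD45, encoded by Ptprc, keeps SRC-family kinases ready to act by removing an inhibitory phosphate, while SHP-1 (Ptpn6) and SHIP-1 (Inpp5d) are recruited to inhibitory receptors and shut the signal down. In macrophages the same enzymes act below Fc receptors, integrins and CSF1R itself.

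Of the 9 genes, 8 had every AZD7507 tumour below every vehicle tumour, and Fgr was the exception. Differences, given throughout as AZD7507 minus vehicle in log2 RPKM (read density per gene length and library size), ran from -1.97 for Inpp5d to -0.31 for Fgr, with a median of -1.31. No member passed limma's test adjusted over all genes (0 of 9 at an adjusted p under 0.05), a threshold that 0.337% of all genes passed downward and 0.0184% upward. At an unadjusted p under 0.05, 8 of 9 were lower, against 5.49% of all genes, and none was higher, against 3.31%. All AZD7507 libraries lay below all vehicle libraries for 8.02% of all genes and above them for 7.34%, and 6 of the 9 members but 2.24% of all genes had a difference of -1 or below. The median difference over all genes was 0.025. Since the 9 genes were chosen with earlier results of these data known, these counts describe them and are not an independent test. In whole tumours, fewer leukocytes and less RNA per leukocyte cannot be told apart.

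The values are cqn-normalized log2 RPKM with equal distributions in all libraries, and their read depth is unknown. Serous and epithelial transcripts were present, with Krt18 at 7.43 ± 0.05 in AZD7507 tumours and 7.02 ± 0.19 in vehicle tumours (SD, n = 3 each). Pax8, in contrast, averaged -3.11 in AZD7507 tumours and -3.20 in vehicle tumours. Of the 11 such markers measured, 0 had a difference below 0, the median was 0.26 and 0 passed limma's test over all genes. Krt8 and Krt18 had every AZD7507 tumour above every vehicle tumour, as 7.34% of all genes did. Pancreatic acinar transcripts were abundant in AZD7507 2, at a summed 5482 RPKM, and in Vehicle 2, at 5006 RPKM, and they were scarce in the other libraries. Csf1r, the gene of the drug's target, fell to 2.57, 2.78 and 1.71 in AZD7507 tumours, against 4.85, 5.47 and 4.59 in vehicle tumours (limma adjusted p = 0.035). That call was lost without any 1 of the 6 libraries (limma adjusted p 0.067 to 0.15), without AZD7507 2 and Vehicle 2 together (0.057) and with a constant variance prior (0.059).

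**Figure D1:**
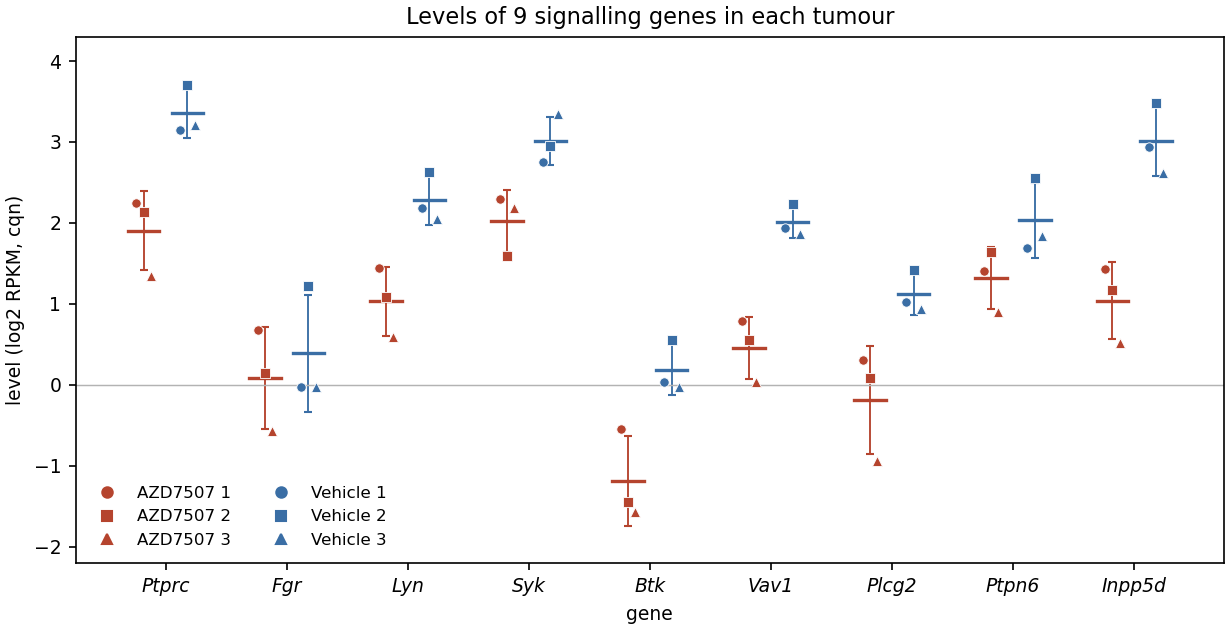
Levels of the 9 genes (log2 RPKM) in 3 AZD7507 tumours (red, left of each pair) and 3 vehicle tumours (blue, right); the long bar is the mean, error bars are 1 SD, and marker shape only numbers tumours within a group. The colours are apart for every gene but Fgr, Vehicle 2 is often the top blue point, and AZD7507 3 is often the lowest red point.

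Ptprc (chr1:138062861-138175708, minus strand; coordinates of genes are GRCm38), the pan-leukocyte phosphatase that acts at the head of the pathway, was at 2.24, 2.14 and 1.34 log2 RPKM in AZD7507 tumours and at 3.15, 3.70 and 3.21 in vehicle tumours. The groups did not overlap, and the lowest value was in AZD7507 3. The difference was -1.45 (SE 0.26, 95% interval -2.07 to -0.83, limma adjusted p = 0.10), or 2.73-fold lower. A130071D04Rik, a transcript model inside Ptprc on the same strand, had a difference of -1.37, and reads of this overlap could have been counted for either gene.

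The SRC-family kinases Lyn and Fgr had unlike values. Lyn (chr4:3678115-3813122, plus strand), which in B cells and myeloid cells can both start and restrain signals, was at 1.44, 1.08 and 0.59 in AZD7507 tumours and at 2.18, 2.62 and 2.05 in vehicle tumours. Its groups were apart, with a difference of -1.25 (SE 0.25, 95% interval -1.84 to -0.65, limma adjusted p = 0.13). Fgr (chr4:132974095-133001910, plus strand), a kinase known mainly from monocytes and neutrophils, was at 0.68, 0.14 and -0.57 in AZD7507 tumours and at -0.03, 1.23 and -0.03 in vehicle tumours. These ranges overlapped widely: AZD7507 1 and AZD7507 2 were above Vehicle 1 and Vehicle 3. The Fgr difference of -0.31 had a 95% interval of -1.35 to 0.74 (limma adjusted p = 0.89), wide enough to hold both no difference and one as large as that of Lyn. Without Vehicle 2 the Fgr difference was 0.11, and without AZD7507 3 it was 0.024, and with array weights 0.093.

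Syk and Btk follow the SRC-family kinases. Syk (chr13:52583173-52648792, plus strand), which also occurs in some epithelial cells, was at 2.30, 1.59 and 2.19 in AZD7507 tumours and at 2.75, 2.95 and 3.34 in vehicle tumours. The groups were apart, and the extremes were other tumours than for most members: Syk was lowest in AZD7507 2 and highest in Vehicle 3. Its difference was -0.99 (SE 0.23, limma adjusted p = 0.19). Btk (chrX:134542336-134583570, minus strand), the TEC-family kinase of B cells and myeloid cells, was at -0.55, -1.44 and -1.57 in AZD7507 tumours and at 0.03, 0.55 and -0.02 in vehicle tumours. All AZD7507 values were below 0 and may rest on few reads. Its difference was -1.38 (SE 0.35, limma adjusted p = 0.24), and it was -0.56 with a pseudocount of 1.

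For the effectors Vav1 and Plcg2 every AZD7507 tumour lay below every vehicle tumour. Vav1 (chr17:57279100-57328031, plus strand) was at 0.78, 0.55 and 0.03 in AZD7507 tumours and at 1.94, 2.23 and 1.86 in vehicle tumours. With the vehicle tumours close together, this 2.94-fold lower level had the smallest p of the 9 genes, at a difference of -1.56 (SE 0.23, 95% interval -2.09 to -1.02, limma adjusted p = 0.053). Plcg2 (chr8:117498291-117635142, plus strand) was at 0.30, 0.09 and -0.95 in AZD7507 tumours and at 1.02, 1.41 and 0.93 in vehicle tumours. Its groups were apart with AZD7507 3 well below the others, and the difference was -1.31 (SE 0.35, limma adjusted p = 0.27), or -0.74 with a pseudocount of 1. Vav1 passed with pseudocounts of 1 and 0.1 (limma adjusted p = 0.044 and 0.049) and with array weights (0.032), and it did not pass without any 1 library (0.10 to 0.22).

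The inhibitory phosphatases stood at opposite ends of the members that were apart. Inpp5d (chr1:87620312-87720507, plus strand), whose product SHIP-1 removes a phosphate from the lipid made by PI3-kinase, was at 1.43, 1.17 and 0.52 in AZD7507 tumours and at 2.94, 3.48 and 2.62 in vehicle tumours. No other member had groups so far apart, and the level was 3.91-fold lower at a difference of -1.97 (SE 0.29, 95% interval -2.66 to -1.28, limma adjusted p = 0.054). With array weights Inpp5d passed (limma adjusted p = 0.046). Ptpn6 (chr6:124720707-124738714, minus strand), whose product SHP-1 dephosphorylates receptor motifs and kinases, was at 1.40, 1.65 and 0.90 in AZD7507 tumours and at 1.69, 2.56 and 1.84 in vehicle tumours. Here AZD7507 2 and Vehicle 1 nearly met, and the difference was -0.72 (SE 0.28, 95% interval -1.38 to -0.05, limma adjusted p = 0.53), or -0.45 without Vehicle 2. Ptpn6 overlaps an antisense gene model, as Lyn, Plcg2 and Btk overlap models on the other strand, and with the strand setting of the counting not given such reads cannot be told apart.

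RefSeq promoter sequence, from 250 bases before to 50 after the start on GRCm38.p6, was held for 8 of the 9 genes and not for Lyn. Shown are those of Inpp5d and Vav1, the members with the smallest p, of Btk, the member with the lowest level, and of Ptpn6, which had the smallest difference among genes with groups apart. Capitals mark GAGGAA or its complement TTCCTC, a form of the ETS-factor core GGAA found in sites of the myeloid and B cell factor PU.1. Other stretches with GGAA, as in the Ptpn6 promoter, are neither marked nor counted.
Inpp5d (chr1:87620062-87620361, plus strand): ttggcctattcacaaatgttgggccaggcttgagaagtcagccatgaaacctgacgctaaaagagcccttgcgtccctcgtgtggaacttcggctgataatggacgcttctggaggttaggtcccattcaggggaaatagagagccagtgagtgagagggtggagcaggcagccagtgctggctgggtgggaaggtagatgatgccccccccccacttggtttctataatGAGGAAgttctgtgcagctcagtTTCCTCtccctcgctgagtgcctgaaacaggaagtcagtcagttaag
Vav1 (chr17:57278850-57279149, plus strand): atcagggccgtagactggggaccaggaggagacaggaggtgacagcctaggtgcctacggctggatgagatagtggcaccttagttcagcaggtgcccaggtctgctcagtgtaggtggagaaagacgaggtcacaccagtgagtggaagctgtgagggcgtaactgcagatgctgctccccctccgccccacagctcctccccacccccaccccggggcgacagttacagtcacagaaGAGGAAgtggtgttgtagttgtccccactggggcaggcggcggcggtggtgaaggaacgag
Btk (chrX:134583091-134583390, minus strand): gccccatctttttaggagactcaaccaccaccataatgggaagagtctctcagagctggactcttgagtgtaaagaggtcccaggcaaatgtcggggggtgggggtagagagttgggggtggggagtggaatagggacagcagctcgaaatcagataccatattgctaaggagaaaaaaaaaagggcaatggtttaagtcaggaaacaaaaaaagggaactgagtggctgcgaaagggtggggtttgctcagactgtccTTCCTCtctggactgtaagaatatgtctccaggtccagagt
Ptpn6 (chr6:124738660-124738959, minus strand): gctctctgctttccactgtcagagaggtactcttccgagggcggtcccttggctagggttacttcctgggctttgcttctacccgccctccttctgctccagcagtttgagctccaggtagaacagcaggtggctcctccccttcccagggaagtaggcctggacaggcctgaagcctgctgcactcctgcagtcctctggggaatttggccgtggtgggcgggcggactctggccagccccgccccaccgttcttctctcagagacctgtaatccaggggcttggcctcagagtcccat
In Inpp5d and Vav1 the marked GAGGAA is part of the longer GAGGAAGT, which begins 20 and 11 bases before the start, and Inpp5d has TTCCTC 3 bases after it. Btk has TTCCTC 9 bases after the start. On either strand, GAGGAA was in the promoters of 6 of the 8 genes, against 30.6% of the 10781 table genes with a promoter and 28.3% of all 32851 promoters. GAGGAAGT, which contains GAGGAA, was in 2 of the 8 genes, against 3.72% of table genes. The SP1 motif GGGCGG was in 3 of 8, Ptpn6, Plcg2 and Vav1, against 67.7% of table genes. Of the 40 genes called lower that had a promoter, 70% had GAGGAA, 22.5% GAGGAAGT and 30% GGGCGG. The members' shares were near these, at 75%, 25% and 37.5%, so the matches are not particular to them. The RUNX motif TGTGGT was in 0 of 8 members, against 15% of table genes and 35% of the 40 lower genes. These are matches of letters and not measured binding.

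Since RPKM is scaled by gene length, the levels can be ordered across genes. In AZD7507 tumours the order of mean levels was Syk (2.03), Ptprc (1.91), Ptpn6 (1.32), Inpp5d (1.04), Lyn (1.03), Vav1 (0.46), Fgr (0.08), Plcg2 (-0.19) and Btk (-1.19), and no neighbours had ranges apart. In vehicle tumours it was Ptprc (3.36), Syk (3.01), Inpp5d (3.01), Lyn (2.28), Ptpn6 (2.03), Vav1 (2.01), Plcg2 (1.12), Fgr (0.39) and Btk (0.19), where Vav1 and Plcg2 were the only neighbours with ranges apart. Inpp5d thus stood level with Lyn in AZD7507 tumours (mean gap 0.01 ± 0.08) and above it in all 3 vehicle tumours (mean gap 0.73 ± 0.14).

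Setting each gene against Ptprc in the same tumour gave ratios with groups apart for 3 of 8 genes. Ptprc itself differed by -1.45 with groups apart, so a gene that differed less than Ptprc has a raised ratio through Ptprc alone. The ratios of Fgr and Ptpn6 thus partly restate the lower level of Ptprc. The share of all genes with such ratios apart was not counted. The log2 ratio of Inpp5d to Ptprc was -0.81, -0.97 and -0.82 in AZD7507 tumours and -0.22, -0.23 and -0.60 in vehicle tumours, a difference of -0.52 (SE 0.14). For Ptpn6 the ratio was -0.84, -0.49 and -0.44 in AZD7507 tumours and -1.46, -1.14 and -1.37 in vehicle tumours, a difference of 0.73 (SE 0.16). For Fgr it was -1.56, -1.99 and -1.91 in AZD7507 tumours and -3.18, -2.48 and -3.24 in vehicle tumours, a difference of 1.15 (SE 0.28). These 3 ratios did not overlap between the groups, and each had an exact permutation p of 0.10 (2-sided, adjusted p = 0.27 over 8 genes), the smallest that 3 against 3 allows. Relative to Ptprc, the differences of Lyn, Syk, Btk, Plcg2 and Vav1 were 0.20, 0.46, 0.07, 0.14 and -0.11, with overlapping groups and exact permutation p from 0.20 to 0.90. This count depended on the scale: with a pseudocount of 1, which weighs low values less, the ratios of Lyn, Btk and Plcg2 were apart too, at 0.30, 0.67 and 0.50, so that 6 of 8 had an exact permutation p of 0.10 (adjusted p = 0.13), and that of Inpp5d was -0.32. Without AZD7507 2 and Vehicle 2, the differences were -0.41 for Inpp5d, 0.78 for Ptpn6 and 1.47 for Fgr.

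**Figure D2:**
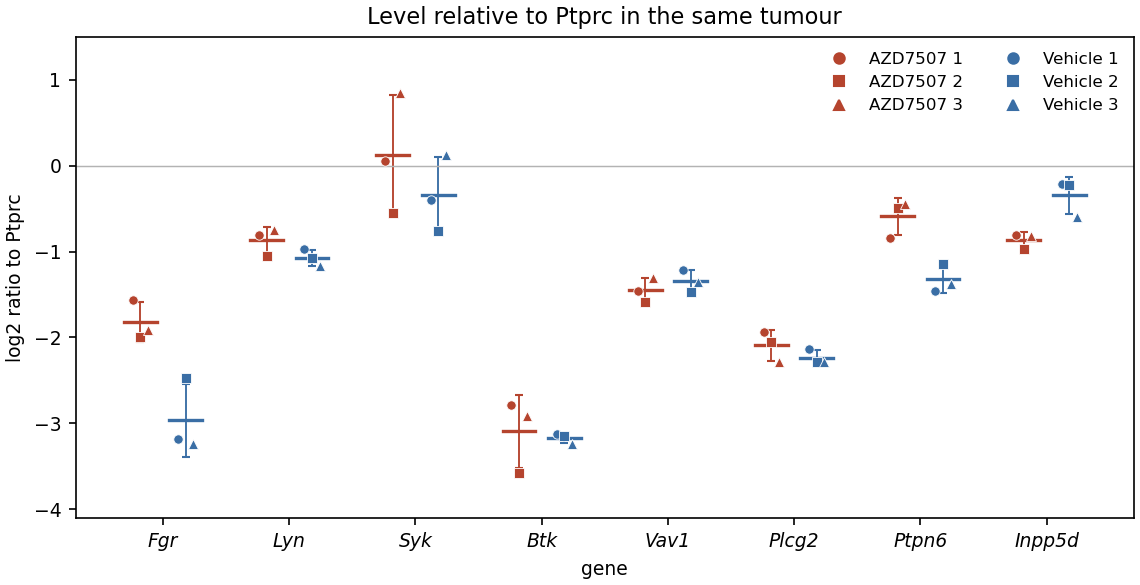
Log2 ratio of 8 genes to Ptprc in the same tumour, for 3 AZD7507 tumours (red, left) and 3 vehicle tumours (blue, right), with mean and 1 SD; shape only numbers tumours within a group. Red lies above blue for Fgr and Ptpn6 and below it for Inpp5d, and the groups overlap for the other genes.

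Most of these enzymes have a close relative that is used well beyond blood cells, measured in the same tumours. Phospholipase C gamma 1, the relative of Plcg2, was at 4.15 ± 0.09 in AZD7507 tumours and 4.27 ± 0.14 in vehicle tumours. The SHIP-1 relative Inppl1 was at 5.31 ± 0.11 in AZD7507 tumours and 5.45 ± 0.17 in vehicle tumours, and the SHP-1 relative Ptpn11 at 4.23 ± 0.10 in AZD7507 tumours and 4.13 ± 0.11 in vehicle tumours (SD, n = 3 each). Each of these 3 levels overlapped between the groups. Over the 10 relatives measured the median difference was -0.03 and none passed limma's test over all genes. Groups were apart for 1, namely Vav2 at -0.44 (95% interval -0.76 to -0.12, limma adjusted p = 0.38), near the 8.02% of all genes that were apart downward. The differences of Vav3, Yes1, Ptpra, Fyn and Src were 0.22, 0.19, 0.084, -0.057 and -0.077, with 95% intervals between -0.49 and 0.71, and that of Tec was -0.002.

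The ratio of a member to its relative was compared for 9 pairs, with Vav1 set against both Vav2 and Vav3. Since the relatives differed little between the groups, these ratios mostly restate the members' own differences and are not separate evidence. The log2 ratio of Inpp5d to Inppl1 was -3.84, -4.06 and -4.91 in AZD7507 tumours and -2.61, -1.78 and -2.93 in vehicle tumours, a difference of -1.83 (SE 0.47). The ratio of Lyn to Yes1 was -1.08, -1.47 and -1.83 in AZD7507 tumours and 0.10, 0.14 and -0.31 in vehicle tumours, so both kinases had about equal levels with vehicle. Its difference was -1.44 (SE 0.26). The ratios did not overlap between the groups for 8 of the 9 pairs, with differences from -1.83 to -0.81 and an exact permutation p of 0.10 each, the smallest possible (adjusted p = 0.11). Ptpn6 to Ptpn11 had the smallest of these, -0.81, and it was -0.51 without Vehicle 2. With a pseudocount of 1, Btk to Tec was -0.56 against -1.37, Plcg2 to Plcg1 -0.62 against -1.18, and Vav1 to Vav2 -0.68 against -1.12. Fgr to Src was the exception, at -0.23 (SE 0.60, exact permutation p = 0.80). Zap70, the relative of Syk in T cells, had no value in the table, so that pair was not compared.

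**Figure D3:**
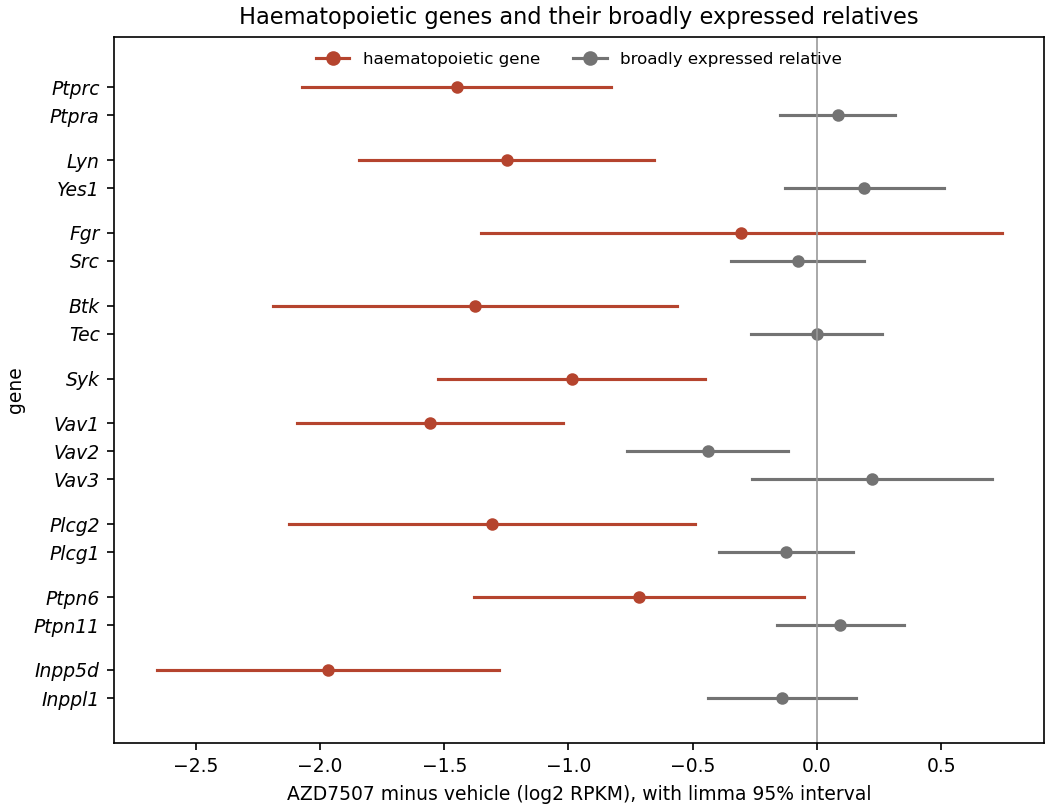
Difference of each haematopoietic gene (red) and its broadly expressed relatives (grey), AZD7507 minus vehicle in log2 RPKM, with limma's 95% interval unadjusted for the number of genes. Apart from Fgr, the red points that have grey relatives lie well to the left of them, and Syk is shown without a relative. Red points run from -1.97 for Inpp5d to -0.31 for Fgr, and the grey points lie between -0.44 and 0.22.

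Among the other kinases of the SRC, SYK and TEC families, 9 of 12 had a value and none passed over all genes, with a median difference of -0.06 (4 of them, Src, Yes1, Fyn and Tec, are also among the relatives). The T cell kinases Lck and Txk were low in all tumours, with means of -1.73 and -0.93 in AZD7507 tumours and -1.51 and -1.14 in vehicle tumours, and the groups overlapped for both.

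Adaptors and effectors of the pathway were mostly lower too: 31 of 32 measured genes had a difference below 0 (45.5% of all genes did). Every AZD7507 tumour lay below every vehicle tumour for 21 of them (8.02% of all genes). The median was -1.0, and 1 passed downward over all genes (0.337% of all genes did). That gene was Fyb, an adaptor that links receptors to integrins and the cytoskeleton. Fyb fell to 0.91, 0.47 and 0.38 in AZD7507 tumours, against 2.23, 2.43 and 2.22 in vehicle tumours (difference -1.70, SE 0.18, limma adjusted p = 0.021). The next 2 by p were Nckap1l, a subunit of the actin-regulating WAVE complex of blood cells, at -1.83 (SE 0.30), and Pik3cd, the leukocyte PI3-kinase catalytic subunit, at -0.93 (SE 0.15), each with a limma adjusted p of 0.068. At the other end, Ptprcap, whose product binds CD45, was the 1 gene with a difference above 0, at 0.050.

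Negative regulators were mixed. Of 17 measured genes, 15 were below 0 (45.5% of all genes were) and 9 had groups apart downward (8.02% of all genes did). The median was -0.39, and 1 passed downward (0.337% of all genes did). Rasal3, a Ras GTPase-activating protein of blood cells, fell to -0.20, -0.58 and -0.40 in AZD7507 tumours, against 1.31, 1.37 and 0.96 in vehicle tumours (difference -1.60, SE 0.21, limma adjusted p = 0.040). The adaptor genes Sla and Dok3, whose products dampen tyrosine kinase signals, had differences of -1.54 (SE 0.26) and -1.58 (SE 0.32) and did not pass (limma adjusted p = 0.074 and 0.14). The ubiquitin ligase gene Cblb and the receptor phosphatase gene Ptprj were at 0.07 and 0.13. The calls of Fyb and Rasal3 depended on single libraries: Fyb passed without AZD7507 1 (limma adjusted p = 0.041) but not without AZD7507 2 (0.079), AZD7507 3 (0.078), Vehicle 1 (0.12), Vehicle 2 (0.083) or Vehicle 3 (0.12), and Rasal3 passed in none of the 6 fits without 1 library (0.10 to 0.20).

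**Figure D4:**
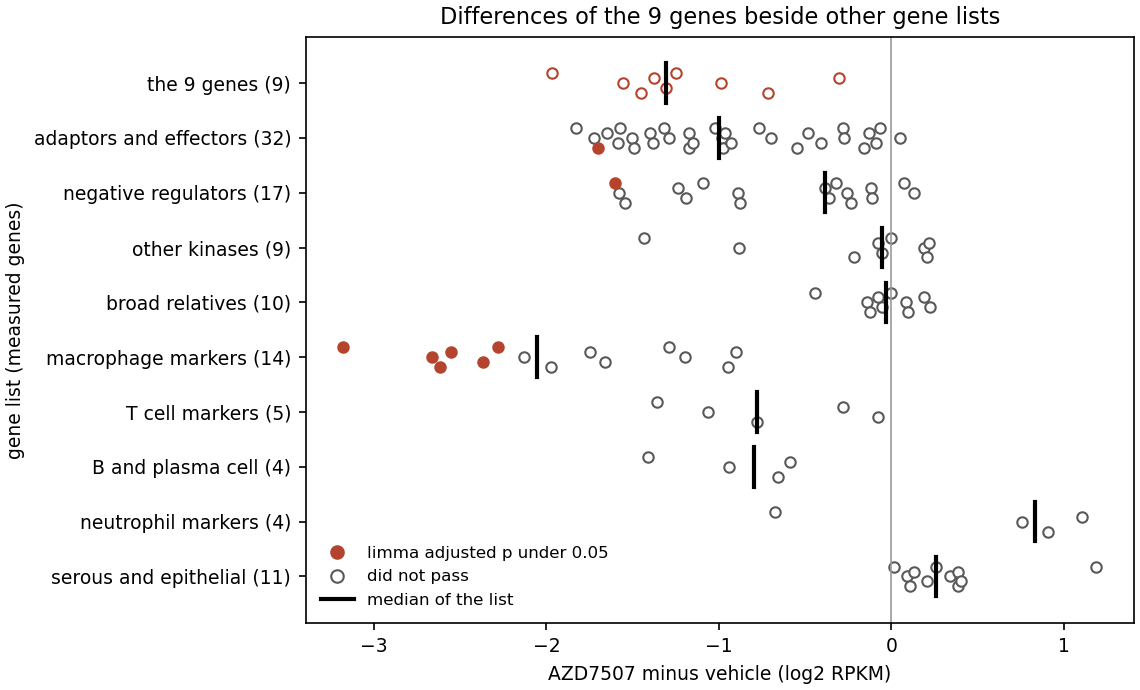
Differences (AZD7507 minus vehicle, log2 RPKM) of the genes of each list, with the number measured in parentheses; filled points passed limma's test over all genes, and black bars are list medians. The median of the 9 genes, -1.31, lies between those of adaptors and effectors (-1.0) and macrophage markers (-2.05), and the broadly expressed relatives centre on -0.03.

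The marker lists of other leukocytes had unlike medians. All 14 macrophage markers had differences below 0 (45.5% of all genes did), with a median of -2.05. Of them, 6 (Csf1r, Adgre1, C1qa, C1qb, C1qc and Cx3cr1) passed downward, against 0.337% of all genes. The summed level of the 14 was 93.5 to 221 RPKM in AZD7507 tumours and 464 to 756 RPKM in vehicle tumours. Without AZD7507 1, 2 markers passed (C1qa and Cx3cr1), and without any other 1 library 0 did. The mean log2 level of the 9 genes minus that of the macrophage markers was -1.41 ± 0.19 in AZD7507 tumours and -2.16 ± 0.20 in vehicle tumours, a difference of 0.75. Of T cell markers, 5 of 11 had a value, summing to 1.57 to 2.06 RPKM in AZD7507 tumours and 2.51 to 2.97 RPKM in vehicle tumours. Of these, 4 had every AZD7507 tumour below every vehicle tumour, as 8.02% of all genes did. The differences were -1.36 for the co-receptor gene Cd4, -1.07 for Cd5, -0.78 for the interleukin-7 receptor gene Il7r and -0.28 for Icos. None passed (limma adjusted p from 0.19 to 0.86). Mean levels of Cd4, Cd5 and Icos were -2.38, -3.15 and -2.29 in AZD7507 tumours and -1.03, -2.09 and -2.01 in vehicle tumours. Such low values may rest on few reads. Cd3e, of the T cell receptor complex, had overlapping groups and a difference of -0.076. Of B and plasma cell markers 4 of 8 had a value, summing to 6.80 to 17.7 RPKM in AZD7507 tumours and 12.6 to 26.9 RPKM in vehicle tumours. Jchain, of antibody-secreting cells, made up most of that sum and overlapped. Cd22, an inhibitory receptor of B cells, was at -1.70, -1.40 and -1.73 in AZD7507 tumours and -0.23, -0.14 and -0.23 in vehicle tumours, so its groups were apart (difference -1.41, SE 0.25, limma adjusted p = 0.094). No NK cell marker had a value (0 of 8). Dendritic cell markers (3 of 8 measured) summed to 8.37 to 9.87 RPKM in AZD7507 tumours and 7.83 to 8.99 RPKM in vehicle tumours, mast cell markers (2 of 7) to 7.92 to 10.9 RPKM in AZD7507 tumours and 4.82 to 11.4 RPKM in vehicle tumours, and platelet markers (2 of 6) to 3.18 to 4.35 RPKM in AZD7507 tumours and 4.3 to 6.44 RPKM in vehicle tumours. The part of each cell type in the members' differences was not tested.

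Of the neutrophil markers, 4 of 10 had a value, and their sums were 5.24 to 7.41 RPKM in AZD7507 tumours and 3.27 to 9.88 RPKM in vehicle tumours. S100a8, a granule protein gene, was at 1.78, 1.38 and 0.82 in AZD7507 tumours and -0.66, 1.95 and -0.03 in vehicle tumours, and Cxcr2, a chemokine receptor gene, was at 0.55, 0.25 and -0.14 in AZD7507 tumours and -1.70, 0.32 and -1.27 in vehicle tumours. The 3 libraries highest in Fgr, namely Vehicle 2, AZD7507 1 and AZD7507 2, were also the 3 highest in S100a8 and in Cxcr2, which was not so for S100a9 or Csf3r. The G-CSF receptor gene Csf3r had every AZD7507 tumour below every vehicle tumour, at 0.29, 0.60 and 0.52 in AZD7507 tumours and 1.0, 1.55 and 0.89 in vehicle tumours (difference -0.68, SE 0.23, limma adjusted p = 0.43). S100a9 overlapped, with a difference of 0.76. The part of neutrophils in the Fgr values was not tested.

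Within each group most members had similar orders of tumours. Vehicle 2 was the highest vehicle tumour for 8 of 9 genes and AZD7507 3 the lowest AZD7507 tumour for 8 of 9, with Syk the exception in both. The mean of the 9 genes was 1.11, 0.77 and 0.27 in AZD7507 tumours and 1.74, 2.30 and 1.76 in vehicle tumours. Over the 36 pairs of members, Pearson's r across the 6 libraries ran from 0.20 for Fgr with Syk to 0.99 for Vav1 with Inpp5d, with a median of 0.88, as a description of libraries that share 1 group difference. After each group's mean was removed, r of a member with the mean of the other 8 was 0.97 for Fgr, 0.99 for Lyn and -0.14 for Syk, a description over 6 libraries.

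The 10 genes outside the list whose profile was most like the members' mean over the 6 libraries were Tyrobp, Fcer1g, Dock2, Tlr13, Ncf1, Myo1f, Was, Ikzf1, Ptpre and Hcls1, each with Pearson's r of 0.996 or higher. Dock2, Was and Hcls1 are also among the adaptors and effectors, and Ptpre among the negative regulators. Tyrobp and Fcer1g encode adaptors that carry the tyrosine motifs on which Syk docks. Tyrobp was at 2.72, 2.32 and 1.59 in AZD7507 tumours and 3.57, 4.37 and 3.59 in vehicle tumours, with groups apart and a difference of -1.63. The differences of the 10 genes ran from -1.63 to -1.09, and none of the 10 passed over all genes (limma adjusted p from 0.10 to 0.24). Their lower levels with AZD7507 follow from the choice, since the members' mean profile itself holds the group difference.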

How the data were processed

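RNA-seq of 6 tumours (ribosomal RNA depleted, per the labels' protocols) was used as deposited, as log2 RPKM values that the authors normalized with cqn, per the name of the deposited table. The submitters' processing notes name BWA 0.7.15-r1140 and HTSeq, and mm10 and GRCm38. The annotation release, strand setting and low-value filter are not given in the sources used here. Depth is unknown, so precision comes only from 3 tumours a group, and such normalization hides a global change in RNA content. Symbols matched 16306 of 16344 identifiers, and gene coordinates are from GENCODE M21.

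The values were tested with limma 3.58.1 in R 4.3.3 (trended, robust prior; Benjamini-Hochberg over all genes; 2-sided; threshold 0.05), and the fit was checked on simulated data. Log2 ratios within a tumour were compared by exact permutation. Groups come from the treatment label, and replicate numbers only from the order of records. The members, lists and tests were chosen with earlier results of these data known. Named genes were all members and relatives, per pathway list the called genes and the 3 with the smallest p, and the 10 most alike in profile (without predicted models or genes with a mean below 0); a few genes under this rule are not reported here. Lck, Txk, Ptprcap, Cblb, Ptprj, A130071D04Rik and single cell type markers were picked with their values in view. Alternatives were array weights, fits without libraries, quantile normalization or median centring of the libraries, pseudocounts of 1 and 0.1, a minimum mean of 0 and another prior.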

Additional observations from a re-analysis of the deposited data

How the results depend on the processing

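No paired analysis was made, since the labels give no pairing of AZD7507 tumours with vehicle tumours. Without 1 library, limma called 0 to 14 genes lower (0 without any 1 vehicle tumour, and 14, 1 and 2 without AZD7507 1, 2 and 3) and 0 higher, against 55 and 3, and 0 members; the members' median difference was -1.55 to -1.07. Array weights called 143 lower and 14 higher genes with 2 members, the constant prior 1 higher gene, and the fit without AZD7507 2 and Vehicle 2 called 13 lower and 1 higher. Pseudocounts of 1 and 0.1 each called 1 member, Vav1, and a pseudocount of 1 gave a median of -0.84. The Fgr difference was 0.093 with array weights, 0.083 without AZD7507 2 and Vehicle 2, and -0.60 to 0.11 without 1 library. Fgr minus Src was 0.15 without both, and -0.48 to 0.25 without 1 library. With a pseudocount of 1, Vav1 minus Ptprc was 0.16, Btk minus Ptprc 0.67 and Plcg2 minus Ptprc 0.50; Btk minus Ptprc was -0.077 to 0.32 without 1 library. Without 1 library Fyn ran from -0.18 to 0.12 and Tec from -0.080 to 0.071; without both acinar-rich libraries they were -0.27 and -0.086. The cause of these changes was not tested. Other members' differences stayed below 0 in each alternative in which they had a value; Btk had none at a minimum mean of 0. In each alternative 7 or 8 members were lower at an unadjusted p under 0.05. Values below 0, as for Btk, may rest on few reads.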
